A study of Homo sapiens with 15 samples.

Results

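The 9 genes described here encode ATP-binding cassette (ABC) transporters that carry drugs, glutathione, glucuronide or sulfate conjugates, porphyrins and related organic anions across membranes. They were chosen by name (ABCB1, ABCB5, ABCB6, ABCC1, ABCC2, ABCC3, ABCC4, ABCC5 and ABCG2), with earlier results of these data known. All 9 were found among the 58219 genes of the RNA-Seq count table. The data came from BEAS-2B cells, an immortalized human bronchial epithelial line, grown without serum in bronchial epithelial growth medium on collagen. PM2.5, fine airborne particulate matter, had been collected on filters in Beijing in winter and extracted into water. Of the 5 conditions, 3 belonged to a 24-h protocol, in which cells received vehicle alone or a single low (1 µg/cm2) or high (30 µg/cm2) dose of the particles. The other 2 conditions belonged to a 7-day protocol, in which cells received vehicle alone or the low dose daily with washing in between, and which is called repeated exposure here. Each condition was run in 3 independent experiments, giving 15 libraries. All libraries came from 1 cell line, so that independent experiments, not donors, are the replicates.

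Proteins of this group use ATP to move their substrates out of the cytosol, mostly across the plasma membrane. In airway epithelium they are known for exporting inhaled toxicants and the conjugates formed when glutathione, glucuronic acid or sulfate is attached to a reactive compound. Several of their genes are known targets of the oxidant-responsive factor NRF2 (gene NFE2L2), which works with small MAF proteins, or of the aryl hydrocarbon receptor (AHR), which responds to polyaromatic hydrocarbons. NRF2 binds the antioxidant response element, and AHR binds the xenobiotic response element.

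RefSeq promoter windows of GRCh38.p14, running from 250 bases before to 50 bases after an annotated start, were given for 6 of the 9 genes, in 11 windows, and not for ABCB5, ABCC1 and ABCC3. The windows were searched on both strands for the antioxidant response element core, TGACNNNGC, and for the xenobiotic response element core, GCGTG, and no match of one core overlapped a match of the other. The antioxidant response element core was found in 3 of the 11 windows, one each for ABCB6, ABCC4 and ABCG2, against 13.3% of 35116 promoter windows of the same length. The xenobiotic response element core was found in 6 of the 11, among them ABCB1, ABCC4, ABCC5 and ABCG2, against 36.5%. Some of the ABCG2 windows overlap, so that the same letters are counted more than once. The 3 stretches below are shown because they hold these letters in members whose transcripts are described further on, each 5′ to 3′ on the strand of its gene, with the antioxidant core in capitals for ABCB6 and ABCC4 and the xenobiotic core in capitals for ABCG2. The ABCB6 stretch lies at chr2:219219049-219219148, the ABCC4 stretch at chr13:95301542-95301641 and the ABCG2 stretch at chr4:88158960-88159119, all on the minus strand and upstream of an annotated start. A match describes letters only and is not evidence of binding.
ABCB6: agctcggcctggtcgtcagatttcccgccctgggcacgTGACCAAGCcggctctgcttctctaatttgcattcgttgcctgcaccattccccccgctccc
ABCC4: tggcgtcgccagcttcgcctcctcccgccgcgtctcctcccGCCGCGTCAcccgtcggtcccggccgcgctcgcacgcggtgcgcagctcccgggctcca
ABCG2: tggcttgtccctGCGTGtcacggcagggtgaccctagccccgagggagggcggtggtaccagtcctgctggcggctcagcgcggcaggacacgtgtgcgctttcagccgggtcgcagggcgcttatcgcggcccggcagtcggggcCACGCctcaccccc

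The libraries held 21460981 to 34724765 counts each. A floor of 3 counts corresponded to 0.0864 to 0.140 CPM, counts scaled to library size, which is the unit used below after TMM normalization for differences in library composition. Mitochondrial genes took 2.37% to 4.40% of the counts. All 8 airway epithelial markers examined were expressed, and the 5 leukocyte and endothelial markers summed to at most 0.533 CPM in any library. In the 24-h protocol, the experiment 2 library was the lowest of its condition in all 3 conditions for 26.9% of the 17599 genes tested, and for 5 of the 8 tested transporters (ABCC1, ABCC2, ABCC4, ABCC5 and ABCG2). A gene was called different when edgeR's quasi-likelihood test gave a P-value under 0.05 after Benjamini-Hochberg adjustment over all 17599 genes and the log2 fold-change reached 0.6 in either direction. In bulk RNA, fewer expressing cells and less RNA per cell cannot be told apart.

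ABCC3, which exports glucuronide conjugates and bile acids across the basolateral membrane, was the most abundant transporter per length of exon in the 24-h controls, at 10.2 ± 3.10 CPM per kilobase (SD, n = 3). ABCC4, which exports cyclic nucleotides and prostaglandins, followed at 5.63 ± 0.975, ABCC5, another cyclic nucleotide exporter, at 4.80 ± 1.11, and ABCC1, the glutathione conjugate exporter also called MRP1, at 4.75 ± 1.40 CPM per kilobase. The ranges over the 3 experiments overlapped between ABCC4 and ABCC5 and between ABCC5 and ABCC1, and all 3 lay below the range of ABCC3. ABCB6, a porphyrin transporter, stood at 0.865 ± 0.116 CPM per kilobase, apart from its neighbours. ABCC2, the apical conjugate exporter, at 0.246 ± 0.0682, ABCG2, the breast cancer resistance protein, at 0.163 ± 0.0634, and ABCB5, a P-glycoprotein relative, at 0.129 ± 0.148 overlapped each with the next. ABCB1, which encodes P-glycoprotein, was last at 0.00549 ± 0.00521 CPM per kilobase.

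The summed per-length level of the 9 genes was 26.8 ± 6.51 CPM per kilobase in 24-h controls, 28.5 ± 9.84 after a single dose of 1 µg/cm2 and 56.1 ± 6.18 after 30 µg/cm2 (SD, n = 3 each). Its lowest value at 30 µg/cm2, 50.3 in experiment 2, was above the highest control value of 32.8. ABCC3 supplied 37.7% of that sum in 24-h controls, 42.8% at 1 µg/cm2 and 67.0% at 30 µg/cm2. In the repeated protocol the sum was 26.4 ± 1.33 in controls and 23.4 ± 1.20 with PM2.5, and the ABCC3 share was 35% and 39.9%.

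**Figure D1:**
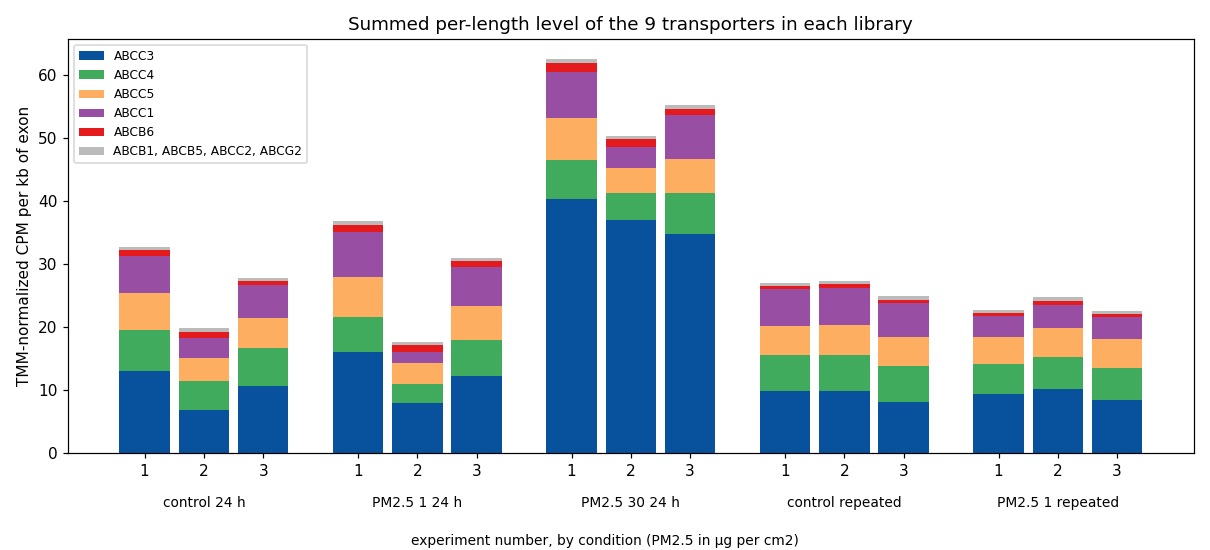
Stacked bars give the TMM-normalized CPM per kilobase of exon of the transporters in each of the 15 libraries, grouped by condition and numbered by experiment. The 3 bars at 30 µg/cm2 for 24 h reach 50.3 to 62.6, with ABCC3 making up 63.1% to 73.4% of each, whereas the highest of the other 12 bars reaches 36.8.

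The single high dose (30 µg/cm2, 24 h) raised ABCC3, by more than 3-fold in each experiment. ABCB5 was also called, and lower, but at counts so low that leaving out single libraries ended the call, and it passed the filter on low counts only through the conditions in which it was high. The remaining 6 tested transporters did not pass both thresholds, and ABCB1 was too low to be tested. Among all 17599 genes, 8.07% were called. The median log2 fold-change was 0.27 over the 8 tested transporters and 0.03 over all genes tested.

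Expression of ABCC3 (chromosome 17, 50634777 to 50692252, plus strand) was 125.6, 66.5 and 102.8 CPM in control experiments 1, 2 and 3. It was 388, 355 and 335 CPM after 30 µg/cm2. Every treated library lay above every control, and the treated libraries were closer to each other than the controls were. Within experiments the ratio of treated to control was 3.09, 5.34 and 3.26, the largest coming from experiment 2, where the control was lowest. The log2 fold-change was 1.87 ± 0.246 (SE), with an adjusted P-value of 0.000326 (edgeR, n = 3 per condition). No other annotated gene overlapped ABCC3.

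ABCB5 (chromosome 7, 20615207 to 20777038, plus strand) was a low transcript throughout. It passed the filter on low counts through its 24-h control and 1 µg/cm2 libraries alone. Its raw counts were 13, 59 and 12 in the 24-h controls, 11, 22 and 11 at 1 µg/cm2, and 0, 0 and 3 at 30 µg/cm2. The experiment 2 control was the highest library, at 2.78 CPM against 0.391 and 0.425 CPM in the other 2 controls, and all 3 libraries at 30 µg/cm2 were at or near the floor. From the summed counts, 84 against 3, the control level was 27.1 times that at 30 µg/cm2, with a 95% exact interval of 8.97 to 134 for counting error alone. Without the experiment 2 control the ratio was 10.9, with an interval of 3.32 to 56.2. The fitted log2 fold-change was -4.76 ± 1.22 (SE), with an adjusted P-value of 0.0236 (edgeR), and depends on the prior count used for such low values. The call was lost without the experiment 2 control (-3.26, adjusted P-value 0.109 by edgeR) and without the experiment 1 library at 30 µg/cm2 (-4.15, adjusted P-value 0.113). It was also lost when only the 6 libraries compared were fitted (adjusted P-value 0.124), and it held with the experiment number as a block (adjusted P-value 0.00286). ABCB5 overlaps an unnamed gene on the other strand.

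ABCB6 (chromosome 2, 219209768 to 219218990, minus strand) was 4.70, 4.99 and 3.83 CPM in controls and 7.86, 6.69 and 4.98 CPM at 30 µg/cm2. The lowest treated value fell just below the highest control value, so the groups overlapped, although each treated library exceeded the control of its own experiment by 1.30 to 1.67 times. The log2 fold-change was 0.54 ± 0.202 (SE) and was not called (adjusted P-value 0.118, edgeR). With the experiment number as a block its adjusted P-value was 0.0143, but its log2 fold-change of 0.53 remained under the size threshold. ABCB6 overlaps ATG9A on the same strand, so that reads in the shared part cannot be assigned to one of them.

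ABCG2 (chromosome 4, 88090264 to 88231322, minus strand), which exports drugs, urate and sulfate conjugates at the apical membrane, was 1.08, 0.471 and 0.815 CPM in controls. It was 1.25, 1.11 and 1.20 CPM at 30 µg/cm2, each above the highest control. The ratio within experiments ranged from 1.15 to 2.36, and the log2 fold-change was 0.56 ± 0.297 (SE), which did not pass either threshold (adjusted P-value 0.281, edgeR). No library held more than 39 counts of ABCG2. Several small RNA and pseudogene annotations overlap the gene on both strands.

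Of the other MRP genes, ABCC1 (chromosome 16, 15949577 to 16143074, plus strand) had 44.5, 24.2 and 39.2 CPM in controls and 55.1, 25.6 and 53.1 CPM at 30 µg/cm2. ABCC1 was higher in all 3 experiments, by 1.06 to 1.35 times, but the difference between experiments exceeded that between conditions, and the log2 fold-change of 0.31 ± 0.390 was not called (adjusted P-value 0.702, edgeR). ABCC2 (chromosome 10, 99782732 to 99852192, plus strand) was 1.93, 1.08 and 1.59 CPM in controls and 2.04, 1.21 and 2.25 CPM at 30 µg/cm2. ABCC5 (chromosome 3, 183919934 to 184018015, minus strand) was 67.6, 42.1 and 54.9 CPM in controls and 76.1, 45.4 and 61.8 CPM at 30 µg/cm2. Both were slightly higher in every experiment, with treated and control ranges that overlapped widely. ABCC2, ABCC4 and ABCC5 had log2 fold-changes of 0.24, -0.00 and 0.15, with SE of 0.319, 0.216 and 0.233, and none was called (adjusted P-values 0.720 to 0.997, edgeR). ABCC4 (chromosome 13, 95019829 to 95301446, minus strand) stood at 44.0 ± 7.62 CPM in controls and 44.0 ± 8.80 CPM at 30 µg/cm2 (SD, n = 3). ABCC1, ABCC2 and ABCC5 each overlap a pseudogene or antisense gene on the other strand, and ABCC4 overlaps none.

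ABCB1 (chromosome 7, 87503633 to 87713323, minus strand) gave 2, 0 and 1 counts in the 24-h controls, 4, 0 and 1 at 1 µg/cm2, and 10, 0 and 1 at 30 µg/cm2. All 6 libraries of the repeated protocol had 0 counts, which at this depth allows up to 3 counts per library. Of the 15 libraries, 2 were above that floor, both from experiment 1 of the 24-h protocol.

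**Figure D2:**
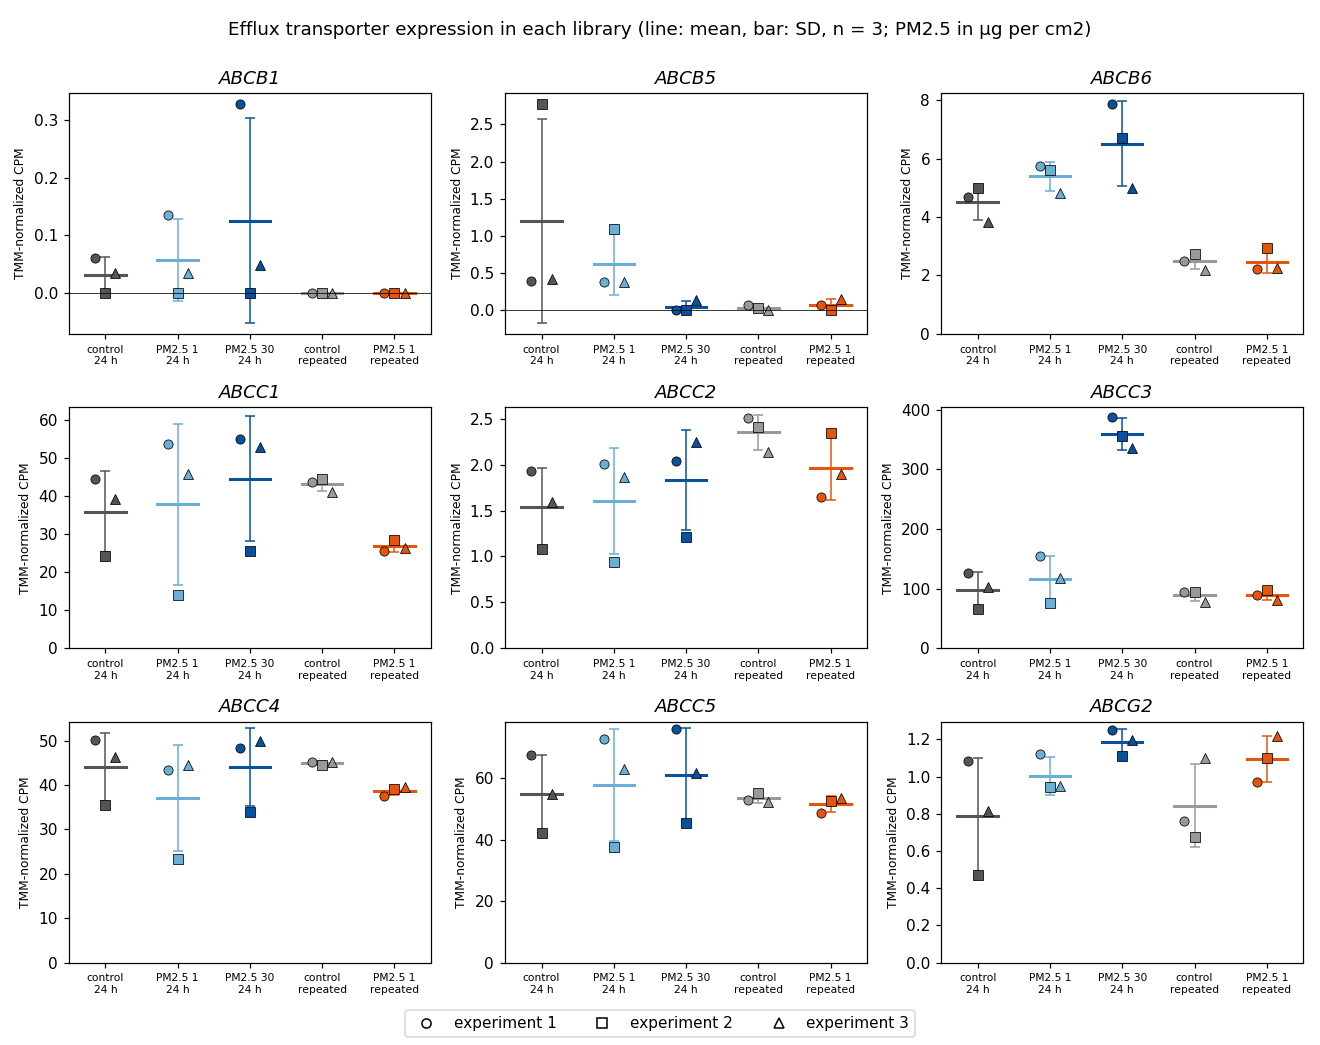
Each panel gives the TMM-normalized CPM of 1 transporter in the 15 libraries, with symbols for experiments 1, 2 and 3, a line at the mean and a bar for the SD of 3 libraries. ABCC3 at 30 µg/cm2 stands at 335 to 388 CPM, above every other library, and ABCC1 falls from 41.2 to 44.5 CPM in repeated controls to 25.6 to 28.6 CPM with repeated PM2.5.

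Beside these changes, several markers of the epithelium itself were lower at 30 µg/cm2. Of 8 airway epithelial markers, 5 were called lower at 30 µg/cm2 (CDH1, KRT5, KRT7, KRT8 and KRT19), against 8.07% of all genes called in either direction. In experiment 2, however, KRT7 was 1326 CPM at 30 µg/cm2 against 1151 CPM in its control, and KRT18 was 404 against 396 CPM. The summed level of all 8 was 1576 to 2635 CPM against 3673 to 4189 CPM in controls. None of the 3 mesenchymal markers (VIM, CDH2 and FN1) was called. The part of this shift in the transporter results was not tested.

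A single dose of 1 µg/cm2 for 24 h, compared with the same 3 vehicle controls, gave no called transporter, against 0.0625% of all genes tested (11 genes). All 8 adjusted P-values were 1 in edgeR, and none of the 8 had an unadjusted P-value under 0.05, which 534 of all genes had. ABCC3 was 154, 76.5 and 117.6 CPM at 1 µg/cm2, which was higher than its control in all 3 experiments but only by 1.14 to 1.23 times (log2 fold-change 0.24 ± 0.238, SE). The treated and control ranges overlapped. ABCB6 was also higher in all 3 experiments, at 5.75, 5.60 and 4.81 CPM (0.26 ± 0.202, SE). ABCC4 was lower in all 3, at 43.4, 23.4 and 44.6 CPM, with log2 ratios of -0.60 to -0.06 within experiments. ABCC1 went in different directions, with ratios of 1.21 and 1.17 in experiments 1 and 3 and 0.577 in experiment 2, where its level of 13.9 CPM was the lowest of all 15 libraries. The log2 fold-changes of the 8 genes ranged from -0.95 for ABCB5 to 0.32 for ABCG2.

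Compared directly, 30 µg/cm2 against 1 µg/cm2 at 24 h called 1 of 8 transporters, against 7.84% of all genes tested. ABCC3 was 2.51 to 4.64 times higher at the high dose within experiments, with a log2 fold-change of 1.63 ± 0.244 (SE) and an adjusted P-value of 0.00104 (edgeR). The call was lost when only the 6 libraries compared were fitted (1.60, adjusted P-value 0.0532 by edgeR). ABCB5 had 44 counts in all at 1 µg/cm2 against 3 at 30 µg/cm2, a ratio of 15.1 with a 95% exact interval of 4.83 to 75.8 for counting error alone. Without the experiment 2 library at 1 µg/cm2 the ratio was 10.15, with an interval of 3.05 to 52.98. Its fitted log2 fold-change of -3.81 ± 1.28 (SE) was not called (adjusted P-value 0.0776, edgeR). With the experiment number as a block it was called (-3.94, adjusted P-value 0.0106, edgeR), where 15.6% of all genes were called. ABCB5 passed the filter on low counts only through its 24-h control and 1 µg/cm2 libraries, so this call draws on libraries that admitted it. This comparison shares its 3 libraries at 30 µg/cm2 with the comparison against control.

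**Figure D3:**
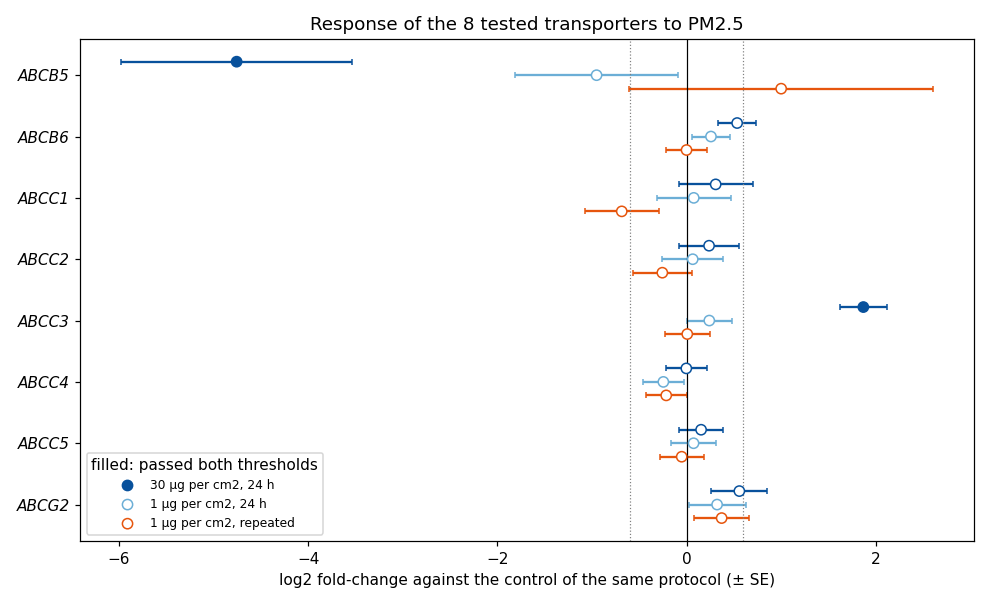
Points give the log2 fold-change of the 8 tested transporters against the control of the same protocol, with bars for the SE, for the single doses of 30 and 1 µg/cm2 and for repeated exposure, and dotted lines mark the size threshold of 0.6 in either direction. Filled points passed both thresholds, and they are ABCC3 at 1.87 and ABCB5 at -4.76, both at 30 µg/cm2.

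After repeated exposure to 1 µg/cm2, ABCC1 had the largest difference among the transporters expressed above 1 CPM, and it was lower with PM2.5. Its levels were 43.7, 44.5 and 41.2 CPM in the repeated controls of experiments 1, 2 and 3, and 25.6, 28.6 and 26.3 CPM with PM2.5. The 2 groups did not overlap, and the ratio within experiments was 0.586, 0.642 and 0.638. Without a block, none of the 8 tested transporters was called (0.227% of all genes tested were, or 40 genes), and ABCC1 had a log2 fold-change of -0.69 ± 0.392 (SE) with an adjusted P-value of 0.528 (edgeR). That fit shares its estimate of the spread with the 24-h libraries. ABCC1 had an SD of 10.6 to 21.1 CPM within a 24-h condition, against 1.75 and 1.54 CPM in the repeated conditions. The part of this spread in the missing call was not tested. With the experiment number as a block, ABCC1 was called lower (log2 fold-change -0.69 ± 0.158, adjusted P-value 0.0182, edgeR), 1 of 8 transporters against 4.39% of all genes tested. Fitted on the 6 repeated-protocol libraries alone, ABCC1 was also called lower (-0.68, adjusted P-value 0.000306, edgeR). That setting called 1029 genes over the whole table, far more than the 40 of the fit without a block.

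ABCC4 was lower with repeated PM2.5 too, at 37.6, 39.0 and 39.5 CPM against 45.2, 44.5 and 45.1 CPM in controls, without overlap. The difference was small, with a log2 fold-change of -0.21 ± 0.216 (SE), and was not called (adjusted P-value 0.749, or 0.171 with the block, edgeR). ABCC2 was lower in all 3 experiments, at 1.65, 2.34 and 1.90 CPM against 2.51, 2.41 and 2.13 CPM, with log2 fold-change -0.26 ± 0.309. ABCG2 was higher in all 3, at 0.972, 1.10 and 1.22 CPM against 0.760, 0.675 and 1.10 CPM, with log2 fold-change 0.37 ± 0.293, and the groups overlapped. ABCC3 was 89.8, 98.1 and 81.0 CPM against 94.5, 95.0 and 78.1 CPM in controls, a log2 fold-change of 0.01 ± 0.238. ABCB6 and ABCC5 had log2 fold-changes of -0.00 and -0.05. ABCB5 was at 2, 0 and 5 counts with PM2.5 and 2, 1 and 0 counts in controls, so few that its fitted change rests on single reads.

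**Figure D4:**
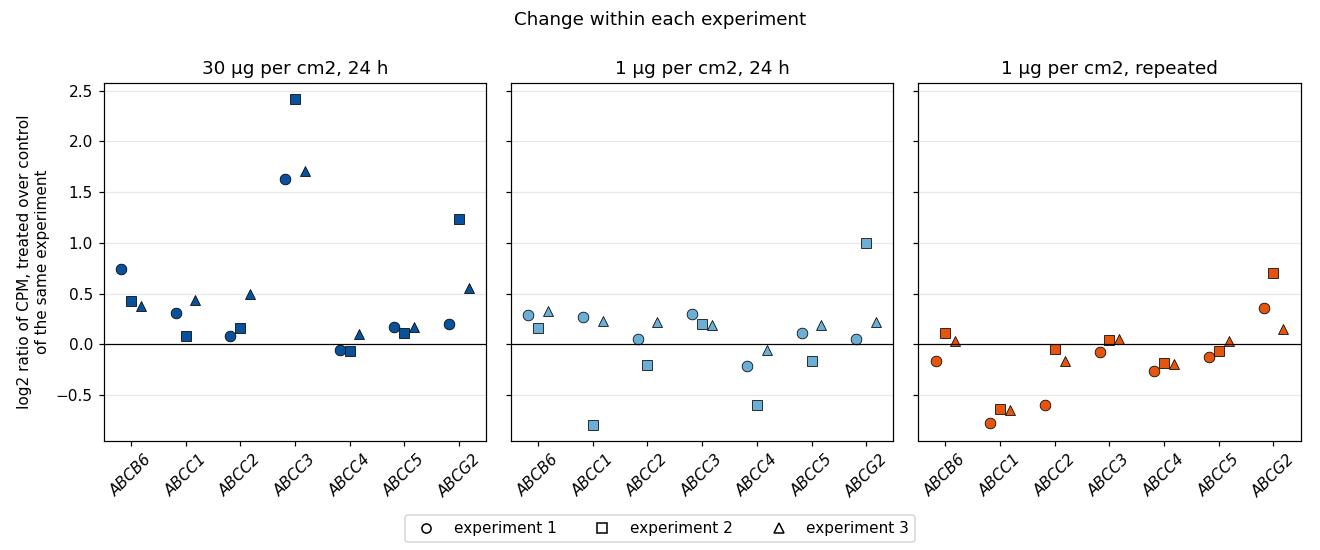
Points give the log2 ratio of CPM in treated over control libraries of the same experiment, for the 7 transporters with enough counts, at 30 µg/cm2 for 24 h, 1 µg/cm2 for 24 h and repeated 1 µg/cm2. The 3 ABCC3 points at 30 µg/cm2 lie at 1.63 to 2.42, the 3 ABCC1 points under repeated exposure at -0.77 to -0.64, and the ABCC1 points at a single 1 µg/cm2 are split between 0.27, 0.23 and -0.79.

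In the repeated protocol the share of ABCC1 in the summed per-length level was 21.6% ± 0.245 in controls and 15.2% ± 0.218 with PM2.5 (SD, n = 3 each). Epithelial markers moved with this comparison as well. KRT5 and TP63 of the 8 were called lower, against 0.227% of all genes called in either direction. The summed level of all 8 was 1963 to 2237 CPM with PM2.5 against 3003 to 3580 CPM in controls. Mesenchymal markers summed to 547 to 573 CPM against 861 to 933 CPM, with none of 3 called. With the block, under which ABCC1 was called, 4 of the 8 epithelial markers were called lower (CDH1, KRT5, KRT19 and TP63). So was 1 of the 3 mesenchymal markers (FN1, log2 fold-change -0.80). The block called 4.39% of all genes tested. The part of these markers in the ABCC1 result was not tested.

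The responses of the 2 protocols were then compared with each other. For the same dose of 1 µg/cm2, the repeated minus the single response called no transporter and no gene (0%), although 1245 genes had an unadjusted P-value under 0.05, and DESeq2 called 75. ABCC1 had the largest difference among the members above 1 CPM, a log2 difference of -0.76 ± 0.552 (SE, adjusted P-value 0.847, edgeR). Without the 3 libraries of 24-h experiment 2, that difference was -0.94 and was called (adjusted P-value 0.000212, edgeR), under a setting that called 1766 genes in all. The libraries left out are those in which ABCC1 was lower at a single 1 µg/cm2, at 0.577 times its control. The ABCC3 responses differed by -0.23 ± 0.337 (SE), which was not called.

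Against the single dose of 30 µg/cm2, the response to repeated 1 µg/cm2 was smaller for ABCC3 by 1.86 ± 0.339 on the log2 scale, with an adjusted P-value of 0.0134 (edgeR). It was the 1 transporter of 8 called, against 1.82% of all genes tested. With the experiment number as a block, ABCC3 (-1.92) and ABCC1 (-0.96, adjusted P-value 0.0105, edgeR) were called, against 14.6% of all genes. ABCB5 passed the thresholds there too, after entering the test only through its 24-h control and 1 µg/cm2 libraries. No size is given for it, since its libraries at 30 µg/cm2 and in the repeated protocol held at most 5 counts. Dose, number of exposures and time in culture differ together in this comparison and cannot be told apart. The 15.2% of genes called with the block for 30 µg/cm2 against control included the same 2 transporters, ABCC3 and ABCB5.

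Vehicle-treated cells of the 2 protocols were compared in the same table, in which 21.9% of all genes tested were called. ABCB6 and ABCB5 were called lower in the 7-day controls, and ABCB5 had passed the filter only through 24-h libraries and was not tested with a filter at 1 CPM. ABCB6 was 2.51, 2.73 and 2.20 CPM in 7-day controls, below all of the 24-h controls (log2 fold-change -0.86 ± 0.207, adjusted P-value 0.00709, edgeR). ABCB5 had 3 counts in the 3 libraries of 7-day controls against 84 at 24 h, a ratio of 24-h to 7-day level of 30.2, or 12.1 without the experiment 2 control with a 95% exact interval of 3.70 to 62.7 for counting error (fitted log2 fold-change -4.93, adjusted P-value 0.00805, edgeR). ABCC2 was higher in every 7-day control than in any 24-h control, with a log2 fold-change of 0.60 ± 0.315 (SE) that was not called (adjusted P-value 0.171, edgeR). ABCC1, ABCC3, ABCC4, ABCC5 and ABCG2 differed by -0.14 to 0.26. All 3 mesenchymal markers were called lower in 7-day controls, at a summed 861 to 933 CPM against 1624 to 2822 CPM, and of the epithelial markers 4 were called higher and 3 lower. Time in culture, plating density and experiment cannot be told apart here, and no block could be fitted.

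Genes that regulate or work with these transporters were described from lists of their own. These lists were also chosen with earlier results of these data known, so calls in them are a description and not independent support. Over all genes tested, 8.07% were called at 30 µg/cm2, the share to set beside each list below. Among 14 regulators, 12 were tested, and 4 were called at 30 µg/cm2. MAFF and MAFG, small MAF partners of NRF2, were higher with log2 fold-changes of 2.09 and 1.09. AHRR, the repressor of the aryl hydrocarbon receptor, was higher by 1.52, and AHR itself was lower (-0.68). NFE2L2 and KEAP1, which encode NRF2 and its inhibitor, had log2 fold-changes of -0.02 and 0.20 and were not called. AHRR was the 1 regulator called at a single 1 µg/cm2 (2.42) and after repeated exposure (1.38), where no transporter was called without a block. Those 2 comparisons called 0.0625% and 0.227% of all genes tested.

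Of 26 genes for glutathione, glucuronide and sulfate conjugation, 24 were tested, with a median log2 fold-change of 0.07 at 30 µg/cm2. GCLC and GCLM, the subunits of the rate-limiting enzyme of glutathione synthesis, were called higher with log2 fold-changes of 2.33 and 1.44, and SULT1E1, an estrogen sulfotransferase, was called lower (-3.63). GCLC averaged 46.7 ± 5.08 CPM in 24-h controls and 235 ± 106 CPM at 30 µg/cm2 (SD, n = 3). GCLC has an annotated antisense gene, from which its reads cannot be told apart when strand is not known. None of the 24 was called at 1 µg/cm2, single or repeated.

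Other ABC genes gave no general rise. Of the 6 other exporters of drugs, bile acids or conjugates, ABCC10 alone was tested, with a log2 fold-change of 0.37 at 30 µg/cm2, which was not called. Of 32 further ABC genes, 25 were tested, with a median log2 fold-change of -0.08 at 30 µg/cm2. ABCG1, a sterol exporter, was called higher (1.01), and ABCA3, the surfactant lipid transporter, ABCA8, and ABCD2, a peroxisomal fatty acid transporter, were called lower (-0.76, -2.30 and -1.56). Of 15 organic ion uptake and multidrug exchange genes of the SLC families, 12 were tested. The prostaglandin transporter SLCO2A1 was called higher (1.63), and the organic cation transporter SLC22A3 and the carnitine transporter SLC22A5 were called lower (-2.29 and -0.76). No gene of these 3 lists was called at 1 µg/cm2, single or repeated, without a block. With the experiment number as a block, ABCA8 was called lower after repeated exposure (-0.80), where 4.39% of all genes tested were called. At 30 µg/cm2 the block raised the calls from 4 to 6 among the 25 further ABC genes tested, from 3 to 5 among the 12 SLC genes and from 3 to 5 among the 24 conjugation genes. The share over all genes tested rose from 8.07% to 15.2% with the same block. Calls stayed at 4 among the 12 tested regulators and at 1 among the 8 heme synthesis genes.

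ABCB6 carries porphyrins, and of 8 heme synthesis genes, all tested, ALAS1 alone was called at 30 µg/cm2. ALAS1, the rate-limiting first enzyme, was 66.2 ± 6.06 CPM in controls and 138 ± 11.9 CPM at 30 µg/cm2 (SD, n = 3), which gave 1.06 ± 0.117 on the log2 scale (SE) with an adjusted P-value of 9.36e-05 in edgeR. The median of the 8 was 0.06.

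ALAS1 was also among the 3 genes whose log2 CPM followed that of ABCC3 most closely over the 15 libraries, which share the conditions and experiments described above. These were SPOCD1 (Pearson r = 0.971), LIF, a cytokine of the interleukin-6 family (r = 0.953), and ALAS1 (r = 0.952). SPOCD1 averaged 8.60 CPM at 30 µg/cm2, against 0.190 in 24-h controls and 0.501 at a single 1 µg/cm2. It averaged 0.222 in repeated controls and 0.173 with repeated PM2.5, so that its r mainly sets the libraries at 30 µg/cm2 against the rest. LIF was 16.2 ± 6.06 CPM in 24-h controls, 16.1 ± 4.51 at 1 µg/cm2, 166 ± 83.5 at 30 µg/cm2, 12.0 ± 1.15 in repeated controls and 15.4 ± 2.79 with repeated PM2.5 (SD, n = 3 each). For ABCB5, which had at most 5 counts in 9 of the 15 libraries, r mainly sets those libraries against the 24-h control and 1 µg/cm2 ones. Its 3 nearest genes were ARID5B (r = 0.925), JAM3 (r = 0.920) and CHRM3 (r = 0.917). ARID5B averaged 39.8 CPM in 24-h controls, 35.6 at 1 µg/cm2 and 15.5 at 30 µg/cm2, and 20.03 and 17.6 CPM in repeated controls and repeated PM2.5.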

How the data were processed

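RNA was extracted with Trizol, cleaned, selected for poly-A and sequenced single-end. The labels count 7 daily treatments in the repeated protocol, whereas the methods end treatment the day before collection on day 7. The authors aligned reads with STAR and deposited raw counts per gene from featureCounts. The labels name hg19 and the methods GRCh38, and the coordinates of all 9 transporters overlap their GRCh38 RefSeq genes. The strand setting and annotation release are not given in the sources used here, so overlapping genes may share reads.

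From the deposited counts, genes were filtered with filterByExpr by condition (17599 of 58219 kept), normalized by TMM and fitted together in edgeR 4.0.16 (R 4.3.3) with glmQLFit in its earlier mode and 5 condition means. Calls needed an adjusted P-value under 0.05 and a log2 fold-change of 0.6 or more in either direction. Each SE was derived from the log2 fold-change and its F statistic. Total counts of 21460981 to 34724765 set the precision, and intervals and floors cover counting error only. Per-length levels are CPM divided by exon length. In counts simulated for 30 µg/cm2 against control (17061 genes), the test recovered 90% of genes changed by 1 and 99% of those changed by 2 on the log2 scale. It also called 8 genes that had not been changed. The simulation gave all genes the same spread, held no difference between experiments and changed only genes above a minimum count. These percentages therefore need not hold for the transporters.

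The replicate number marks the experimental batch, per the series design, so it pairs the libraries of a protocol. Deviations of same-numbered libraries correlated at 0.201 to 0.721 in the 24-h and at 0.121 to 0.181 in the repeated protocol. Those of differently numbered libraries correlated at -0.683 to 0.453 and at -0.127 to -0.0341, so that the ranges overlapped in the 24-h protocol. The fit with this replicate block was an alternative, because the methods name no batch term. Other alternatives were RLE and upper quartile scaling, 2 other filters, edgeR's current mode, DESeq2 1.42.0, a likelihood ratio test by adjusted P-value alone, only the libraries compared, each library left out, and 24-h experiment 2 left out.

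All 9 transporters are reported. From the other lists, genes called at 30 or 1 µg/cm2 or after repeated exposure are named, and for each called transporter the 3 genes of mean CPM of at least 1 with the highest Pearson r. Members and lists were chosen with earlier results of these data known.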

Additional observations from a re-analysis of the deposited data

Results flagged for a closer look

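The response of ABCC3 to repeated exposure at 1 µg/cm2 differed from its response to the single dose of 30 µg/cm2. The repeated response at 1 µg/cm2 minus the single response at 30 µg/cm2 was -1.86 on the log2 scale (SE 0.339, adjusted P-value 0.0134, edgeR's interaction contrast), from a log2 fold-change of 0.01 after repeated exposure and 1.87 after the single high dose. Treated libraries exceeded the control of their own experiment in 3 of 3 experiments at 30 µg/cm2 and in 2 of 3 after repeated exposure. The difference kept its sign and its call under every alternative run, and lay between -2.06 and -1.64 with 1 library left out. Dose and duration differ together in this contrast. At the same dose of 1 µg/cm2, the repeated and single responses of ABCC3 were not called different.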

How the results depend on the processing

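Counts of called transporters at 30 µg/cm2 against control fell from 2 to 1 with a filter at 1 CPM, at which ABCB5 was not tested, with only the libraries compared (ABCB5 adjusted P-value 0.124, edgeR), and to between 1 and 2 with 1 library left out. For 30 against 1 µg/cm2 the count was 2 with DESeq2, without a filter and with the replicate block, and 0 with only the libraries compared. After repeated exposure it was 1 with the block and with only the libraries compared, for 7-day against 24-h controls 1 with the filter at 1 CPM, for the repeated against the single response at 1 µg/cm2 1 without 24-h experiment 2, and for the repeated response against the single one at 30 µg/cm2 2 with DESeq2, 2 without a filter, 3 with the block and 2 without 24-h experiment 2. With the replicate block, no transporter call other than those given beside the results changed. Over all genes tested, the block raised the share called from 7.84% to 15.6% for 30 against 1 µg/cm2. It rose from 0.227% to 4.39% after repeated exposure, and from 1.82% to 14.6% for the repeated response against the single one at 30 µg/cm2. For the other settings, whole-table counts follow where they moved, with 36501 genes tested without a filter and 14655 with the filter at 1 CPM.

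Genes called over the whole table at 30 µg/cm2 against control, 1420, became 360 with only the libraries compared, 2681 with the block, 3430 without 24-h experiment 2, and 794 to 2706 with 1 library left out, the highest without the experiment 2 library at 30 µg/cm2. At 1 µg/cm2, 11 became 39 (DESeq2), 35 (likelihood ratio test with no threshold on size), 38 (no filter), 2 (only the libraries compared), 74 (block), 378 (without 24-h experiment 2) and 4 to 45 (1 library left out). After repeated exposure, 40 became 250 (DESeq2), 92 (no filter), 1029 (only the libraries compared), 773 (block) and 0 to 11 (1 library left out). For 30 against 1 µg/cm2, 1379 became 149 (only the libraries compared), 2737 (block), 3113 (without 24-h experiment 2) and 711 to 2715 (1 library left out). For the repeated against the single response at 1 µg/cm2, 0 became 75 (DESeq2), 20 (no filter), 1 (only the libraries compared), 181 (block), 1766 (without 24-h experiment 2) and 0 to 63 (1 library left out), and against the single response at 30 µg/cm2, 320 became 787 (DESeq2), 488 (no filter), 2572 (block), 3884 (without 24-h experiment 2) and 131 to 1459 (1 library left out). The causes of these shifts were not tested.

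Signs that turned all belonged to log2 fold-changes that were not called. For ABCC4 at 30 µg/cm2 the value was 0.0080 without 24-h experiment 2, for ABCC1 at a single 1 µg/cm2 -0.052 with the block, and for ABCB6 after repeated exposure 0.028 with upper quartile scaling, 0.0066 with the filter at 1 CPM, 0.0026 in edgeR's current mode and 0.0074 with only the libraries compared. With 1 library left out, values at 30 µg/cm2 ranged from -0.14 to 0.15 for ABCC4 and -0.047 to 0.33 for ABCC5. At a single 1 µg/cm2 they ranged from -1.60 to 0.57 for ABCB5, -0.24 to 0.47 for ABCC1, -0.11 to 0.32 for ABCC2, -0.40 to 0.00097 for ABCC4 and -0.11 to 0.31 for ABCC5. After repeated exposure they ranged from -0.12 to 1.92 for ABCB5, -0.15 to 0.074 for ABCB6 and -0.083 to 0.074 for ABCC3, and the repeated minus single response of ABCC3 at 1 µg/cm2 from -0.45 to 0.013. At these depths the counts of ABCB1 and ABCB5, and to a lesser extent ABCG2, limit what could be detected.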
